A study of Mus musculus with 24 samples.

Results

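Calcineurin and the NFAT transcription factors were followed through 9 genes of CD4+ T cells, from resting Naïve cells to stimulated Th2 cells, with and without BAF180. The genes were Ppp3ca, Ppp3cb and Ppp3cc, which encode the catalytic subunits of the phosphatase calcineurin, Ppp3r1, which encodes its regulatory subunit, Nfatc1, Nfatc2, Nfatc3 and Nfat5, which encode transcription factors, and Rcan1, which encodes an inhibitor of calcineurin. Every probe that the array table lists under these symbols was taken. This gave 8 genes, and Rcan1 was found as the ninth under its older symbol Dscr1, so that 23 of the 25697 probes and 9 of the 17871 genes on the array were members. Of these 23 probes 18 passed a detection p of 0.02 on 1 array or more, and each gene was represented by its brightest detected probe. All 9 genes kept a probe, as did 10418 genes of the whole array.

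RNA of WT and BAF180-deficient cells in 4 states was hybridised to 24 Illumina MouseRef-8 v2 BeadChips, 3 per genotype and state. The labels describe Balb/c mice of 4 to 6 weeks, while the methods describe a mixed background of other strains in which both alleles of Pbrm1, the gene for BAF180, carry a floxed exon and are deleted by a CD4-Cre transgene, which acts in the T cell lineage. Resting Naïve cells were CD4+ CD62L+ cells selected to 95% purity. Stimulated Naïve cells had spent 24 h on antibodies to CD3 (1 µg/ml) and CD28 (2 µg/ml). Resting Th2 cells had been differentiated on plates with these antibodies in IL-4 (10 ng/ml), an antibody to IFNγ (10 µg/ml) and IL-2 (100 U/ml). Stimulated Th2 cells were the same cells after 1.5 h of PMA (50 ng/ml) together with ionomycin (500 ng/ml). The 2 stimulations therefore differ in agent and length as well as in cell type. Arrays A, B and C of a group come from RNA of 3 pairs of mice, and the p-values measure the spread between these arrays.

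Calcium entering a T cell through its antigen receptor binds calmodulin, which activates calcineurin. Calcineurin removes phosphates from NFAT proteins, which then enter the nucleus and switch on cytokine genes, often side by side with AP-1. Ionomycin is a calcium ionophore and so drives this step without the receptor. Nfat5 is the exception in the family, since calcineurin does not bind it, and it is best known for the response to osmotic stress. Rcan1 has a start site that NFAT itself activates, which makes it a feedback inhibitor. Nfatc1 messages start at alternative promoters and end at alternative polyadenylation sites, so that long and short forms exist in T cells.

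Sequence upstream of a start site was at hand in RefSeq (GRCm38.p6) for 6 of the 9 members, in 9 windows of 250 bases. Nfatc1, Ppp3ca and Ppp3cc were not among them. The core that NFAT proteins bind, GGAAA on either strand, stood at least once in 55.6% of the 32851 windows of all genes. Its longer form GGAAAA, which overlaps it, stood in 20.4%, and the AP-1 motif TGANTCA in 6.75%. The 4 windows below are those of Rcan1, whose start sites differ in this respect, of Nfat5, which rose most in Th2 cells, and of Ppp3cb, which fell. They read 5′ to 3′ on the strand of the gene, and capitals mark GGAAA or its reverse complement TTTCC.
Rcan1, first start site, chr16:92466170-92466419, minus strand: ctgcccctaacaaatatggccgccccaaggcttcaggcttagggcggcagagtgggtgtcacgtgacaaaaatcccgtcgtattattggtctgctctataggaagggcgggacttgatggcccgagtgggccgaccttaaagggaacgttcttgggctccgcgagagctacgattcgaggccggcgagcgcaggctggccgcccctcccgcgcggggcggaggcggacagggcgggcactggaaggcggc
Rcan1, second start site, chr16:92400079-92400328, minus strand: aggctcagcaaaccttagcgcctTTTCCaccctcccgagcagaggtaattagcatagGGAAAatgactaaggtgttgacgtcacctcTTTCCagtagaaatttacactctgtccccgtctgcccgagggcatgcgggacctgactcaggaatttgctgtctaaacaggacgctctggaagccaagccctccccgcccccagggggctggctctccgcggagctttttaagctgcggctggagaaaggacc
Nfat5, chr8:107293220-107293469, plus strand: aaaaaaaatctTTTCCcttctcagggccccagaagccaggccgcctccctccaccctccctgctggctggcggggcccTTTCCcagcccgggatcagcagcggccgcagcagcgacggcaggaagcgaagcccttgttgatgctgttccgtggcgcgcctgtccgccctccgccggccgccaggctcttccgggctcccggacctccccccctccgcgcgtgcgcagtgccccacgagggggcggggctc
Ppp3cb, chr14:20546574-20546823, minus strand: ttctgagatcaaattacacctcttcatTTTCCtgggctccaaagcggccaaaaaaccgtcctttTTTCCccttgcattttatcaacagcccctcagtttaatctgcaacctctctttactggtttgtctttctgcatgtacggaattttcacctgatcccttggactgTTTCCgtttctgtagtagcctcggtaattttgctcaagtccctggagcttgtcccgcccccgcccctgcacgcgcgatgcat
The first Rcan1 window held 0 matches and the second 3, a number that 6.39% of all windows reach, among them 2 of the form GGAAAA and beside 1 AP-1 motif. The Nfat5 window held 2 matches, a number reached by 21.4% of windows, and the Ppp3cb window 3. The windows of Nfatc2 held 3 and 1, those of Nfatc3 held 1 and 0, and that of Ppp3r1 held 0. A match describes these letters and is not a bound site.

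Between 8047 and 10689 probes were detected per array, and replicate arrays correlated at 0.949 to 0.989 across probes. Probes detected on all arrays were dimmer in resting Naïve cells, with medians of 93.3 to 146 intensity units per array, than in the other 3 states, with medians of 137 to 346. All 6 defining CD4 T cell markers were detected on every array. The Th2 markers (6 genes) summed to 17344 to 27967 intensity units in stimulated WT Th2 cells against 400.4 to 450.9 in resting WT Naïve cells. Resting WT Th2 cells, at 1295.8 to 3130.8, overlapped with stimulated WT Naïve cells, at 1132 to 2545.8. The Naïve T cell markers (5 genes) summed to 2398.8 to 5078.3 in resting WT Th2 and 1230.6 to 2423 in resting WT Naïve cells. Cd69, an activation marker, had a log2 mean of 11.87 in resting WT Naïve and 7.54 in resting WT Th2 cells. The other activation markers had the higher mean in resting WT Th2 cells. Il2ra went from 5.34 to 8.21, Tfrc from 9.22 to 10.46 and Myc from 4.96 to 5.45. The RNA of a bulk sample cannot tell fewer cells of a type from less RNA per cell. Values below are log2 intensities, corrected for background and quantile normalized, and differences were tested with limma with p-values adjusted over the 14246 detected probes. A difference between states was called at an adjusted p below 0.05, and a difference between genotypes by the 4 criteria of the methods (Z-ratio beyond 1.5, FDR below 0.3, p below 0.05 and a signal above 0). Only the thresholds are those of the study. They were applied to these log2 values and limma p-values instead of Z-scores, so the numbers of calls are not those of the study.

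The scaling of the arrays matters for the comparisons with Naïve cells. Setting the array medians equal moved the median gene by -0.22 to 0.59 on the log2 scale between states, and setting equal the median of the probes detected on all arrays moved it by -0.74 to 0.38. Both are shifts of whole arrays, so each gene has the same change relative to the median gene under both. That relative change is given below as the change relative to all genes. Among markers of other cells, myeloid markers were detected most widely in resting Naïve cells, where 6 of 7 were detected on every array and summed to 1102 to 3831 intensity units in WT and 1364 to 2429 in BAF180-deficient cells. In stimulated Naïve cells 3 of 7 were detected on every array of a group, with sums of 604 to 1012. In Th2 cells 1 or 2 of 7 were, but the sums of 698.9 to 2288.5 at rest and 787.5 to 2255.4 after stimulation overlapped with those of resting Naïve cells. Among these markers Cst3 stayed high, at log2 means of 9.70 to 10.05 in the Th2 groups and 9.95 and 10.03 in resting Naïve cells. The other detected ones were lower in resting WT Th2 than in resting WT Naïve cells. Lyz2 went from 9.76 to 4.22, Fcer1g from 9.89 to 4.59 and Csf1r from 7.94 to 4.66. Cd68 went from 7.28 to 4.40 and Tyrobp from 6.21 to 4.20. B cell markers were at 2 or 3 of 7 detected in both Naïve states and at 0 of 7 in stimulated Th2 cells. Both regulatory T cell markers, Foxp3 and Ikzf2, were detected on all arrays, with sums of 299.3 to 567 in resting Naïve, 292.4 to 476.5 in stimulated Naïve and 115.7 to 370.9 in Th2 cells, and in WT cells Foxp3 went from a mean of 8.83 in resting Naïve to 5.89 in resting Th2 cells and Ikzf2 from 7.41 to 4.86. Of 3 NK cell markers 0 or 1 was detected on all arrays of a group, and Klrd1 went from 7.46 in resting to 4.89 in stimulated WT Naïve cells. Of 2 CD8 T cell markers 1, Cd8b1, was detected on all arrays of every group. Its WT means were 8.57 in resting Naïve, 7.79 in stimulated Naïve, 7.98 in resting Th2 and 7.79 in stimulated Th2 cells. In BAF180-deficient cells the means were 8.42, 7.005, 7.02 and 7.09 in the same order. Standard deviations of Cd8b1 within the groups were 0.34 to 0.95. The part of these other cells in the results was not tested.

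The genotype was checked on Pbrm1, whose brightest probe was lower in BAF180-deficient cells by -1.01 in resting Naïve, -1.63 in stimulated Naïve, -1.86 in resting Th2 and -1.42 in stimulated Th2 cells, and was called in all 4 states.

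**Figure D1:**
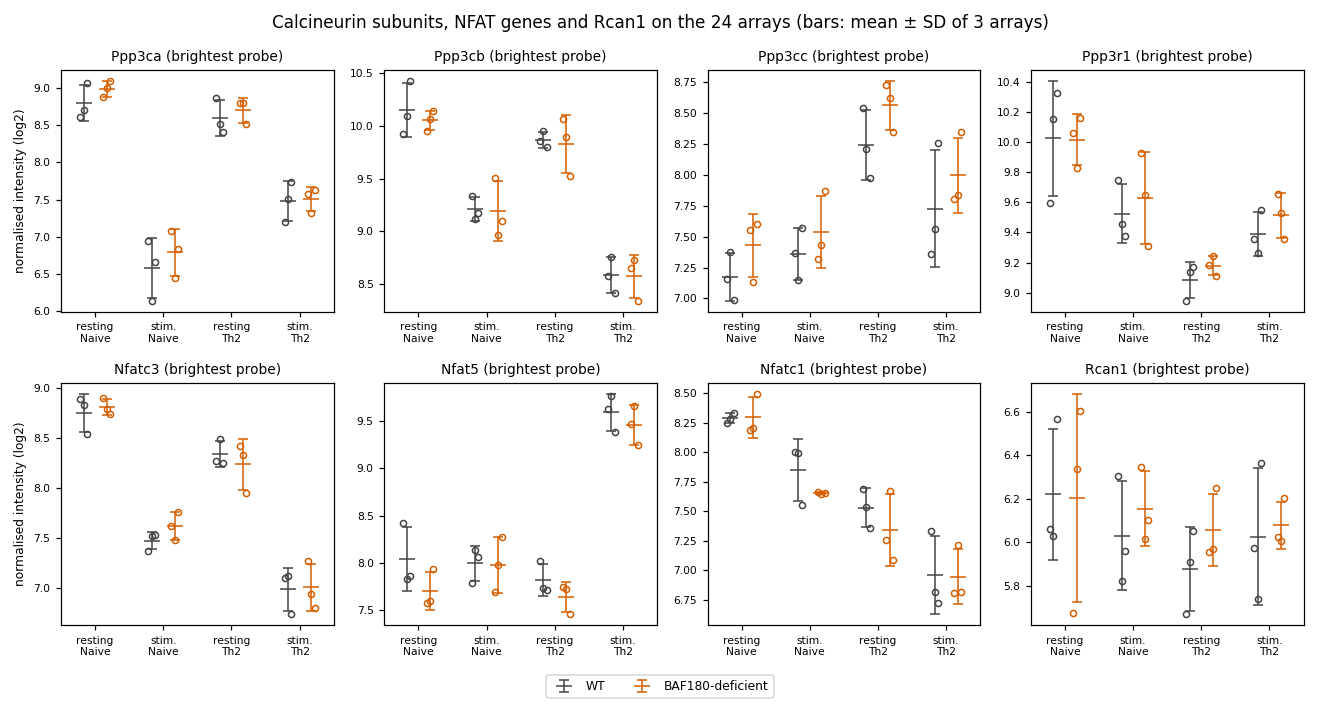
Normalized log2 intensity of the brightest probe of 8 of the 9 genes (Nfatc2, near background, is not drawn) on every array, by cell state, with points for single WT and BAF180-deficient arrays and bars for mean ± SD (n = 3). Nfat5 stands at 9.24 to 9.77 on the 6 stimulated Th2 arrays and at 7.46 to 8.43 on the other 18, while Nfatc3, Ppp3ca and Ppp3cb are lower in both stimulated states with this normalization (for Ppp3cb in Naïve cells the direction turns under array median scaling).

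Of the catalytic subunit genes of calcineurin, Ppp3ca and Ppp3cb were called lower after both stimulations with quantile normalization (Ppp3cb in Naïve cells turned sign under array median scaling), and Ppp3cc was called after neither. Ppp3ca, which encodes the alpha isoform, stood at 8.61, 8.70 and 9.07 in resting WT Naïve cells and at 6.94, 6.14 and 6.66 after anti-CD3 and anti-CD28. In BAF180-deficient cells the values were 8.874, 8.9996 and 9.090 at rest and 7.08, 6.45 and 6.84 after stimulation. No stimulated array of either genotype reached the lowest resting array. The gene fell by 2.21 in WT cells (standard error 0.20), to 21.6% of its resting level (limma adjusted p = 2.36e-08), and changed by -2.196 in BAF180-deficient cells, to 21.8% (2.66e-08). Relative to all genes the changes were -1.42 and -1.47. Under array median scaling they were -1.17 and -1.20, with adjusted p of 0.0615 and 0.0538.

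In Th2 cells Ppp3ca was again lower after stimulation, here by PMA and ionomycin. WT arrays stood at 8.86, 8.51 and 8.40 at rest and at 7.21, 7.51 and 7.73 after stimulation. BAF180-deficient arrays stood at 8.80, 8.79 and 8.51 and then at 7.58, 7.32 and 7.63. The resting and stimulated arrays did not overlap. The falls were by 1.11 in WT (adjusted p = 0.000248) and by 1.19 in BAF180-deficient cells (0.000142), and relative to all genes the changes were -0.85 and -1.54. Under array median scaling the WT change was -0.81, with an adjusted p of 0.2997. A second and dimmer Ppp3ca probe, detected on 22 of 24 arrays, changed by -0.54 (adjusted p = 0.135) in WT and by -0.88 (0.0155) in BAF180-deficient Naïve cells, and by -0.18 and -0.20 in Th2 cells (0.756 and 0.715), so that the 2 probes part in their calls.

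Ppp3cb encodes the beta isoform of the catalytic subunit. It stood at 9.86, 9.95 and 9.80 in resting and at 8.58, 8.76 and 8.41 in stimulated WT Th2 cells. In BAF180-deficient Th2 cells it stood at 10.07, 9.90 and 9.53 and, after stimulation, at 8.65, 8.73 and 8.34. Every stimulated array lay below every resting array. The gene fell by 1.29 in WT, to 41.0% of the resting level (adjusted p = 5.47e-06), and by 1.26 in BAF180-deficient cells, to 41.9% (8.74e-06). Relative to all genes the changes were -1.02 and -1.59, and under array median scaling the WT change of -0.98 had an adjusted p of 0.0775.

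In Naïve cells the Ppp3cb difference followed the scaling. With quantile normalization it was lower after stimulation by -0.94 in WT (adjusted p = 9.97e-05) and by -0.86 in BAF180-deficient cells (0.000259), but with array median scaling the sign turned, to 0.24 and 0.28, and relative to all genes the changes were -0.006 and 0.013.

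Ppp3cc, the gamma catalytic isoform, was the only one of the 9 genes called higher in resting Th2 than in resting Naïve cells with quantile normalization. Under array median scaling the differences of all 9 were positive in BAF180-deficient cells, and Nfatc3, for example, was called higher there. Ppp3cc stood at 7.16, 7.37 and 6.99 in WT Naïve and at 8.54, 8.21 and 7.98 in WT Th2 cells. In BAF180-deficient cells it stood at 7.55, 7.13 and 7.60 and at 8.73, 8.62 and 8.34. The Th2 arrays lay above the Naïve arrays in both genotypes. The gene was higher by 1.07 in WT (2.10-fold, adjusted p = 0.000907) and by 1.13 in BAF180-deficient cells (2.19-fold, 0.00053), and relative to all genes by 1.52 and 1.74. On PMA and ionomycin it changed by -0.52 and -0.57, which did not pass the test (adjusted p = 0.100008 and 0.0705), and on anti-CD3 and anti-CD28 by 0.19 and 0.11 (0.546 and 0.737).

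Ppp3r1, the regulatory subunit B that calcineurin needs for activity, was lower in resting Th2 than in resting Naïve cells. WT Naïve arrays stood at 9.60, 10.16 and 10.33 and WT Th2 arrays at 8.95, 9.14 and 9.17. BAF180-deficient arrays stood at 10.07, 9.83 and 10.16 and at 9.19, 9.24 and 9.11. The 2 states did not overlap. The differences were -0.94 in WT (adjusted p = 0.000307) and -0.84 in BAF180-deficient cells (0.000907), but 0.025 and 0.48 under array median scaling and -0.31 and -0.11 relative to all genes. After stimulation of Naïve cells Ppp3r1 differed by -0.50 in WT (adjusted p = 0.0259) and by -0.39 in BAF180-deficient cells (0.0842), with a WT value of 0.69 under array median scaling, and the WT call was lost without resting Naïve replicate B or C (adjusted p = 0.0904 and 0.138) or stimulated Naïve replicate B or C (0.0749 and 0.104). In Th2 cells the changes on stimulation were 0.30 and 0.34 (0.239 and 0.187).

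With quantile normalization the order of the states differed between the subunits. Ppp3ca was highest in resting Naïve cells and lowest in stimulated Naïve cells, and its first 2 states, resting Naïve and resting Th2, did not differ beyond their spread (adjusted p = 0.485 in WT and 0.286 in BAF180-deficient cells). Ppp3cb ran from resting Naïve through resting Th2 and stimulated Naïve to stimulated Th2 cells, with the same first pair not told apart (0.207 and 0.322) and the other neighbours apart (0.00596 and 0.0096 in WT). For Ppp3cc the order was resting Th2, stimulated Th2, stimulated Naïve and resting Naïve cells, and no neighbours were told apart in either genotype. For Ppp3r1 the order was resting Naïve, stimulated Naïve, stimulated Th2 and resting Th2 cells, and among its neighbours only resting and stimulated WT Naïve cells were told apart (0.0259), a pair whose order turned under array median scaling.

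Among the factors, Nfatc3, which is abundant in T cells and needs calcineurin to enter the nucleus, was lower in both stimulated states. In WT cells it stood at 8.27, 8.49 and 8.26 in resting and at 7.10, 7.12 and 6.74 in stimulated Th2 cells. In BAF180-deficient cells the values were 8.42, 8.34 and 7.95, and then 7.27, 6.95 and 6.81. The resting and stimulated arrays were apart. The fall was by 1.35 in WT, to 39.2% of the resting level (standard error 0.15, adjusted p = 9.30e-07), and by 1.23 in BAF180-deficient cells, to 42.7% (3.88e-06), and relative to all genes the changes were -1.15 and -1.57.

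On anti-CD3 and anti-CD28 Nfatc3 went from 8.89, 8.84 and 8.54 to 7.38, 7.52 and 7.53 in WT and from 8.90, 8.79 and 8.74 to 7.62, 7.48 and 7.76 in BAF180-deficient cells. All 6 stimulated arrays were below all 6 resting arrays. The fall was by 1.28 (adjusted p = 8.66e-07) and by 1.19 (2.32e-06). Relative to all genes it was -0.47 and -0.43, and under array median scaling -0.22 and -0.16 (adjusted p = 0.592 and 0.702). Between resting Th2 and resting Naïve cells it differed by -0.42 in WT and -0.57 in BAF180-deficient cells (0.0392 and 0.00597), but by 0.50 and 0.69 under array median scaling (adjusted p = 0.183 and 0.0455), so that in BAF180-deficient cells the 2 scalings gave calls in opposite directions. The WT call was lost without resting Naïve replicate A or B (adjusted p = 0.137 and 0.110) or resting Th2 replicate A or C (0.110 and 0.116), and the BAF180-deficient call without resting Th2 replicate C (0.0516).

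Nfat5 went the other way in Th2 cells. Its brightest probe stood at 8.02, 7.74 and 7.71 in resting WT Th2 cells and at 9.62, 9.77 and 9.38 after 1.5 h of PMA and ionomycin. In BAF180-deficient cells it stood at 7.74, 7.73 and 7.46 and then at 9.47, 9.66 and 9.24. The stimulated Th2 arrays were the highest 6 of the 24. The rise was by 1.77 in WT (3.40-fold, adjusted p = 3.10e-07) and by 1.81 in BAF180-deficient cells (3.51-fold, 2.88e-07), and relative to all genes by 1.98 and 1.49. Over all alternative settings the adjusted p was at most 0.00121 in WT and 0.0232 in BAF180-deficient cells.

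A second Nfat5 probe, designed upstream of the first on the same RefSeq entry, also rose. It stood at 5.26, 5.59 and 5.07 in resting and at 7.13, 7.05 and 6.80 in stimulated WT Th2 cells. In BAF180-deficient cells it stood at 5.17, 5.35 and 5.05 and at 6.71, 7.26 and 6.69. It rose by 1.69 in each genotype (3.23-fold, adjusted p = 5.67e-07 and 6.87e-07). The remaining probe, on another entry of the gene, was detected on 1 of 24 arrays. In Naïve cells the brightest probe of Nfat5 changed on stimulation by -0.042 in WT and 0.27 in BAF180-deficient cells (adjusted p = 0.883 and 0.250). Under array median scaling these changes were 0.96 and 1.26, and relative to all genes 0.71 and 0.99. Between resting Th2 and resting Naïve cells it differed by -0.22 and -0.061 (0.392 and 0.829). Under array median scaling these differences were 0.68 and 1.16, and relative to all genes 0.35 and 0.58. In WT cells the order with quantile normalization was stimulated Th2, resting Naïve, stimulated Naïve and resting Th2. Only stimulated Th2 cells were told apart from their neighbour there (difference 1.55, adjusted p = 5.33e-07).

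Nfatc1, the member of the family that NFAT itself activates through one of its promoters, gave different answers by probe. The brightest probe, designed on transcript variant 2, stood at 7.69, 7.54 and 7.36 in resting and at 7.34, 6.82 and 6.73 in stimulated WT Th2 cells. In BAF180-deficient cells it stood at 7.25, 7.68 and 7.08 and at 6.81, 7.22 and 6.81. The BAF180-deficient groups overlapped, and the WT groups did not. It changed by -0.57 in WT (adjusted p = 0.0205) and by -0.39 in BAF180-deficient cells (0.119). The WT call was lost without resting Th2 replicate A or B (0.0876 and 0.0532) or stimulated Th2 replicate B or C (0.0854 and 0.107). The next brightest variant 2 probe changed less. Its means were 7.39 in resting and 7.04 in stimulated WT Th2 cells, and 7.33 and 7.07 in BAF180-deficient Th2 cells.

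The probe ILMN_1224430, designed on the other RefSeq entry of Nfatc1, was higher after the same stimulation. It stood at 5.75, 5.27 and 5.59 in resting and at 7.58, 6.67 and 7.21 in stimulated WT Th2 cells. In BAF180-deficient cells it stood at 5.31, 5.67 and 5.81 and at 7.02, 7.50 and 7.61. All 6 stimulated arrays were above all 6 resting arrays. It rose by 1.62 in WT (3.07-fold, standard error 0.31, adjusted p = 0.000456) and by 1.78 in BAF180-deficient cells (3.43-fold, 0.000211), and relative to all genes by 1.69 and 1.51. A dimmer probe at base 21 of that entry, detected on 5 of 24 arrays, changed by -0.072 and -0.020 (adjusted p = 0.872 and 0.969), and a neighbouring one at base 11 was detected on 0 arrays.

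The probes of Nfatc1 were set against each other on each array, as the value of ILMN_1224430 minus the mean of the 2 brightest variant 2 probes, a comparison chosen after the probes had been seen. Only its change between states is used, since levels of different probes cannot be compared. The difference was -1.75, -2.20 and -1.81 in resting and 0.27, -0.22 and 0.42 in stimulated WT Th2 cells, and -2.04, -1.84 and -1.32 and then 0.063, 0.19 and 0.85 in BAF180-deficient cells. No stimulated Th2 array overlapped with any other array. It changed by 2.09 with stimulation of Th2 cells (2.08 in WT and 2.10 in BAF180-deficient cells), with p = 0.005 by a two-sided exact permutation test within genotypes, the smallest that 400 arrangements allow, and 0.015 adjusted over 3 comparisons. With stimulation of Naïve cells it changed by 0.41 (exact p = 0.215) and between resting Th2 and resting Naïve cells by 0.20 (exact p = 0.540). The array scaling cancels in this difference except through background and quantile correction.

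**Figure D2:**
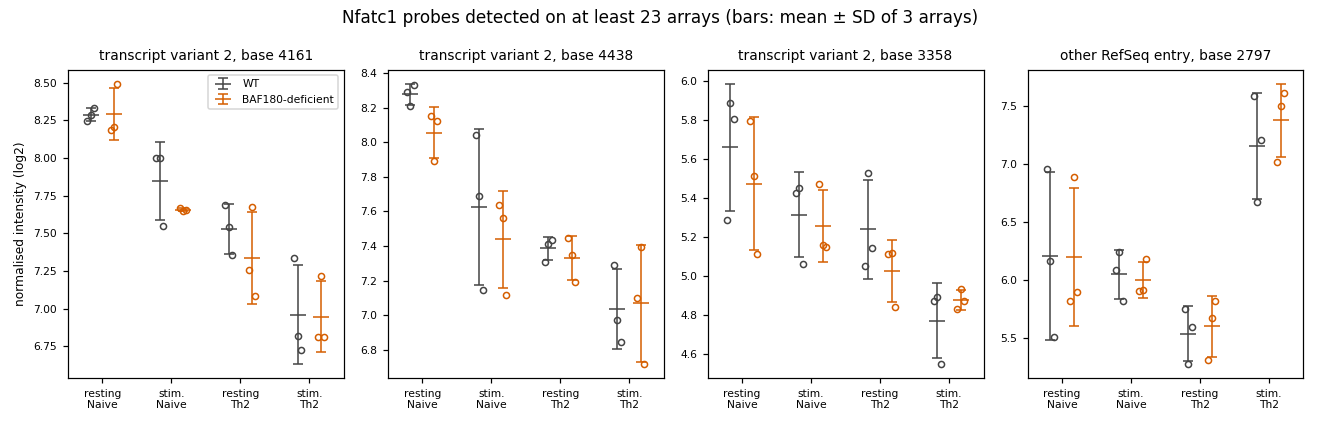
Normalized log2 intensity of the 4 Nfatc1 probes detected on at least 23 arrays, by cell state, 3 on transcript variant 2 and ILMN_1224430 on the other RefSeq entry, with points for single arrays and bars for mean ± SD (n = 3). The variant 2 probes are lowest in stimulated Th2 cells, while ILMN_1224430 is at 6.67 to 7.61 there and at 5.27 to 5.81 in resting Th2 cells.

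Against resting Naïve cells the brightest Nfatc1 probe was lower in resting Th2 cells by -0.76 in WT (adjusted p = 0.0023) and -0.96 in BAF180-deficient cells (0.000297), which turned to 0.16 and 0.30 under array median scaling. Relative to all genes the differences were -0.17 and -0.29. On stimulation of Naïve cells it differed by -0.44 in WT (0.0513) and -0.64 in BAF180-deficient cells (0.00634), with 0.39 in the latter under array median scaling.

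Nfatc2, often the most abundant NFAT protein of resting T cells, could not be measured on these arrays. Of its 5 probes 2 were detected at all, on 2 and 1 of 24 arrays, and the brightest stayed at 4.21 to 5.11.

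Rcan1, the feedback inhibitor, gave no called difference between states. Its probe, near the end of the message at base 2062, stood at 5.67, 5.91 and 6.05 in resting and at 5.97, 5.74 and 6.36 in stimulated WT Th2 cells. In BAF180-deficient cells it stood at 5.95, 5.97 and 6.25 and at 6.02, 6.01 and 6.20. The groups overlapped. The change was 0.15 in WT (95% interval -0.30 to 0.59, adjusted p = 0.721) and 0.021 in BAF180-deficient cells (-0.42 to 0.47, 0.971). In Naïve cells the changes were -0.19 and -0.050 (0.512 and 0.882). The intervals leave room for changes of this size and are no proof of equal levels, and a probe near the end does not part messages from the 2 start sites shown above. Under array median scaling the changes of Rcan1 in Naïve cells were 0.49 in WT and 0.64 in BAF180-deficient cells. A second Rcan1 probe at base 32 was detected on 1 array.

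Counted by brightest probe, 4 of 9 genes were called after stimulation of WT Naïve cells, all lower (Ppp3ca, Ppp3cb, Ppp3r1 and Nfatc3), where 45.2% of all genes were called, 23.3% higher and 21.9% lower. In BAF180-deficient Naïve cells it was also 4, with Nfatc1 in place of Ppp3r1, where 43.4% of all genes were called, 22.1% higher and 21.3% lower. Of these calls, Ppp3cb, Ppp3r1 and Nfatc1 change sign under array median scaling. After stimulation of Th2 cells 5 of 9 were called in WT, Nfat5 higher and Ppp3ca, Ppp3cb, Nfatc3 and Nfatc1 lower, where 28.5% of genes were called, 12.5% higher and 15.9% lower. In BAF180-deficient Th2 cells it was 4, without Nfatc1, where 27% were called, 11.7% higher and 15.4% lower. Between resting Th2 and resting Naïve cells 4 were called in each genotype, Ppp3cc higher and Ppp3r1, Nfatc1 and Nfatc3 lower, where 35.5% of genes were called in WT (17.9% higher, 17.6% lower) and 35.7% in BAF180-deficient cells (18.2% and 17.5%), and the 3 lower ones turn sign under array median scaling. Without overlap between the 3 and 3 arrays were 49.2%, 41.1% and 43.6% of all genes in WT and 49.2%, 43.5% and 50% in BAF180-deficient cells, in the order of these comparisons.

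**Figure D3:**
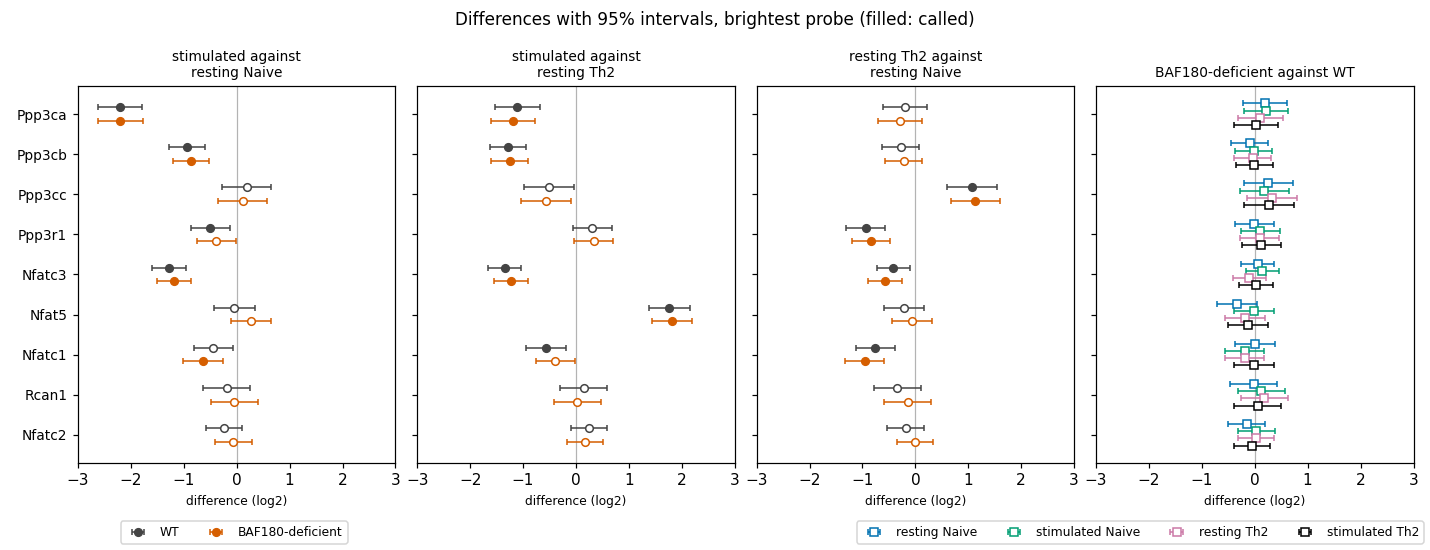
Difference in log2 intensity with its 95% interval for the brightest probe of each gene, in the 3 comparisons of states (WT and BAF180-deficient) and in the comparison of genotypes (4 states), with filled points for called differences. Nfat5 in stimulated Th2 cells and Ppp3cc in resting Th2 cells lie to the right, and no point of the genotype panel is filled.

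The responses of Th2 and Naïve cells to their own stimulation were compared as an interaction. It was called for 3 of 9 genes in each genotype, where 26.1% of all genes were called in WT and 27.5% in BAF180-deficient cells. The response of Nfat5 was more positive in Th2 cells by 1.81 in WT (adjusted p = 2.56e-05) and 1.54 in BAF180-deficient cells (0.000149), but by 1.07 and 0.0046 under array median scaling (0.199 and 0.995). That of Ppp3ca differed by 1.099 and 1.01 (0.00672 and 0.0117), since its fall was larger in Naïve cells, with 0.36 and -0.57 under array median scaling. That of Ppp3r1 differed by 0.80 and 0.72 (0.0213 and 0.0361), with -0.063 and -0.99 under array median scaling, and the WT call was lost without replicate B or C of resting Naïve, C of stimulated Naïve, A of resting Th2 or C of stimulated Th2 cells (adjusted p = 0.0520 to 0.0586). The BAF180-deficient call was lost without replicate A or C of resting Naïve, B or C of stimulated Naïve, A or C of resting Th2 or A or B of stimulated Th2 cells (adjusted p = 0.0579 to 0.111). Agent, length of stimulation and cell type cannot be told apart in this comparison.

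Loss of BAF180 left no called difference in the 9 genes. The numbers called were 0 of 9 in Naïve cells at rest and after stimulation and 0 of 9 in Th2 cells at rest and after stimulation, where, in this order, 0.758%, 0.115%, 0.106% and 0.096% of all genes were called. At an unadjusted p below 0.05 the count was also 0 of 9 in each state, where 6.83%, 2.25%, 3.43% and 2.79% of all probes passed. The differences ran from -0.33 (Nfat5 in resting Naïve cells, 95% interval -0.71 to 0.047) to 0.32 (Ppp3cc in resting Th2 cells, -0.15 to 0.79), and the bound farthest from 0 among the intervals of the 9 genes in the 4 states was that 0.79. In no state and for none of the 9 were the arrays of the genotypes apart, where 7.99%, 6.59%, 10.3% and 7.47% of all genes were. The 3 interactions of genotype with stimulation or cell type called 0 of 9 (0.0096%, 0% and 0.0096% of all genes).

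Averaged over the 4 states, a comparison added after the single states had been seen, Ppp3cc was higher in BAF180-deficient cells by 0.26 (standard error 0.11, 95% interval 0.023 to 0.49, limma adjusted p = 0.573), with 0.26 and 0.18 in resting and stimulated Naïve cells and 0.32 and 0.27 in resting and stimulated Th2 cells. It did not meet the criteria, which 2.44% of all genes did. Without replicate C of stimulated WT Th2 cells 1 of the 9 genes met them. Nfat5 was at -0.17 (95% interval -0.36 to 0.025).

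The rest of the pathway was read from 7 lists with 72 genes, of which 54 had a detected probe and none is a member. Between the genotypes 0 of the 54 were called in each of the 4 states. Of all genes 0.758% and 0.115% were called in resting and stimulated Naïve cells, and 0.106% and 0.096% in resting and stimulated Th2 cells. The list of genes known as NFAT targets had 20 genes, of which 16 had a detected probe. Il2, Nr4a1 and Pdcd1 were among those without one. Il3 was detected on stimulated arrays only, and Cd40lg on stimulated Th2 arrays only. These genes passed the filter through the groups where they are high, so their calls there are not independent of the filter. Of 16 detected targets 12 were called in stimulated WT Naïve cells (10 higher and 2 lower) and 13 in stimulated WT Th2 cells (12 higher and 1 lower), where 45.2% (23.3% higher) and 28.5% (12.5% higher) of all genes were called, with a median change of 1.57 and 3.37 against -0.012 for all genes in both. In BAF180-deficient cells the numbers were 11 (9 higher and 2 lower) and 13 (13 higher), where 43.4% and 27% of all genes were called, with medians of 1.67 and 3.06. Some targets were not detected in a resting state, and with those genes at their lowest possible change the Naïve medians were 0.95 and 1.11, and the Th2 medians were as before.

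Il3, which encodes a growth factor for myeloid cells, was not detected on any resting Th2 array and was at least 396-fold higher in stimulated WT and at least 259-fold higher in stimulated BAF180-deficient Th2 cells. Egr2, a zinc finger factor induced by NFAT, rose in WT Th2 cells by 5.21 and in BAF180-deficient cells by 5.47. Il4, the defining cytokine of Th2 cells, rose by 4.59 and 4.09. Ifng, which encodes interferon gamma, was detected on 1 of 3 resting WT Th2 arrays, where it rose by 6.05, and on 0 of 3 resting BAF180-deficient ones, where it was at least 73.7-fold higher after stimulation. In Naïve cells Il2ra, the alpha chain of the IL-2 receptor, rose by 3.04 in WT and 2.98 in BAF180-deficient cells. Among the targets called lower was Dgkz, which encodes a kinase that removes diacylglycerol, at -1.57 in WT and -1.50 in BAF180-deficient Naïve cells (-0.49 and -0.44 under array median scaling, not called). The changes of Egr2, Il4 and Il2ra given here kept their sign and call under array median scaling.

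Of the genes of calcium entry 14 were detected, and they were called about as often as all genes in WT cells (45.2% and 28.5% of all genes after stimulation of Naïve and Th2 cells). In WT Naïve cells 6 were called after stimulation, 1 higher and 5 lower, of which Kcnn4, a potassium channel, turned to 0.32 under array median scaling. Itpr2 and Itpr3, which encode channels that release calcium from the endoplasmic reticulum, changed by -2.24 and -1.700, and Atp2a3, the calcium pump of that compartment, by -1.79. In WT Th2 cells 4 were called, 1 higher and 3 lower. The one that rose was Orai1, the pore of the store-operated calcium channel, by 2.11 in WT (adjusted p = 3.14e-05) and 2.56 in BAF180-deficient cells, while its partner Stim1, the sensor of the store, changed by -1.24 and -0.80, called lower in both. In BAF180-deficient cells 6 were called in Naïve cells (0 higher and 6 lower, not all of which kept their sign under array median scaling, where Itpr1, for example, turned to 0.57) and 6 in Th2 cells (1 higher and 5 lower). Of all genes 43.4% and 27% were called in these comparisons of BAF180-deficient cells.

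Among inhibitors and anchors of calcineurin 5 genes were detected. Fkbp1a, the protein through which the drug FK506 acts on calcineurin, was higher in resting Th2 than in resting Naïve cells by 2.85 in WT and 2.61 in BAF180-deficient cells, one of 4 of the 5 genes called higher there in each genotype, where 17.9% and 18.2% of all genes were. Rcan3, a relative of Rcan1, was lower in stimulated than in resting Th2 cells by -1.34 and -1.39, in contrast to the values of Rcan1 above, a difference that was not tested. Of the 2 detected calmodulin genes Calm3 changed with stimulation of Th2 cells by -1.104 and -1.23, both called. Of 10 detected genes for NFAT kinases and transport, 5 were called in stimulated WT Naïve cells (2 higher and 3 lower), 3 in stimulated WT Th2 cells (1 higher and 2 lower) and 6 between the resting WT states (1 higher and 5 lower, of which Csnk1e turned to 0.041 under array median scaling), where 45.2%, 28.5% and 35.5% of all genes were called. Dyrk1b, one of the kinases that rephosphorylate NFAT, changed by -2.04 in WT and -1.703 in BAF180-deficient Naïve cells and by -1.01 and -0.88 in Th2 cells, all called lower.

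Nfat5 has targets of its own in the osmotic response, and 5 of the 6 listed were detected. After stimulation of Th2 cells 1 of 5 was called in each genotype, where 28.5% of all genes were called in WT and 27% in BAF180-deficient cells. The called gene was Slc5a3, which encodes a carrier for inositol. It was not detected on any resting array and so passed the filter through stimulated arrays only. On stimulated Th2 arrays it was always detected, and it was at least 1.56-fold higher than at rest in WT and at least 1.48-fold higher in BAF180-deficient cells (adjusted p = 6.89e-06 and 2.43e-05). Slc6a6, the taurine carrier, Slc38a2, an amino acid carrier, Akr1b3, aldose reductase, and S100a4 had changes between -0.29 and 0.46, none of which passed the test.

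**Figure D4:**
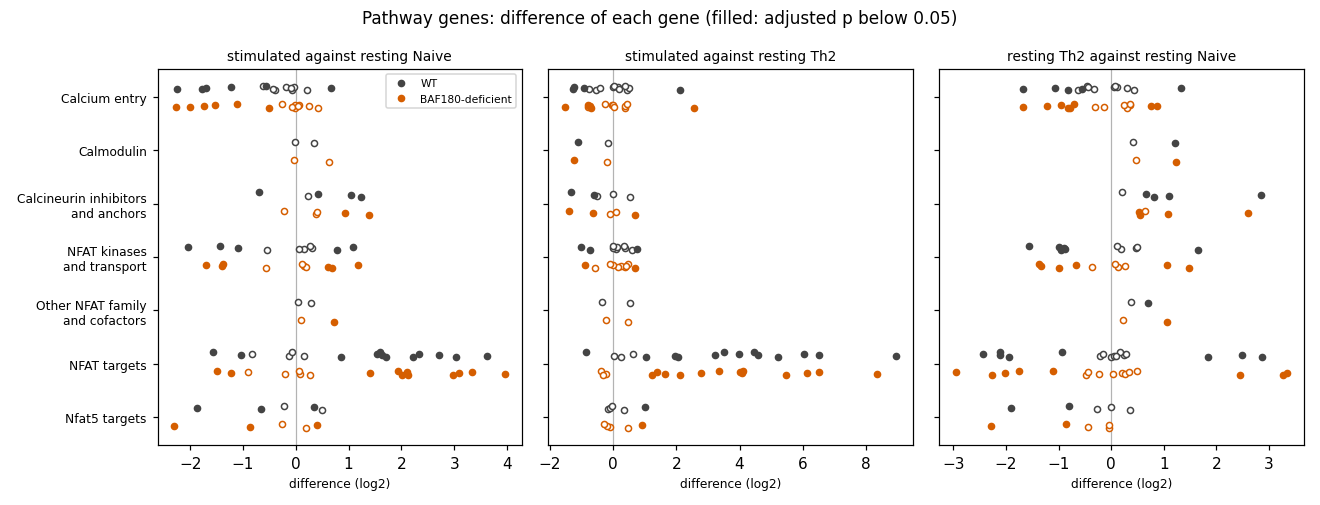
Difference in log2 intensity of each detected gene of the pathway lists in the 3 comparisons of states, with a point per gene and genotype, filled where the adjusted p was below 0.05, and with genes undetected in a group drawn at their fitted difference. In stimulated Th2 cells most filled points to the right are NFAT targets, such as Egr2 at 5.21 in WT, and Orai1 is the filled calcium entry point at 2.11.

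Some other genes ran closely with the members over the 24 arrays, which share normalization and group structure. For Nfat5 the closest were Tnfsf14 (Pearson r = 0.959), Calcrl (0.956) and 1810009J06Rik (0.954). For Nfatc3 they were Arhgap25 (0.977), Arhgap45 (0.974) and Slc44a2 (0.970), and for the brightest probe of Nfatc1 Gprasp1 (0.952), Nhlrc2 (0.939) and Suds3 (0.933). For Ppp3ca they were Tspan14 (0.963), Dpp4 (0.958) and Itm2b (0.957), and for Ppp3cb Tbc1d10c (0.981), Kmt5c (0.973) and Fam78a (0.973). For Ppp3cc they were Dcun1d3 (0.906), Fam229b (0.904) and Gm5127 (0.887), and for Ppp3r1 Alg1 (0.919), Ikzf2 (0.891) and Tmem131l (0.871). For Rcan1 they were LOC233529 (0.735), Map1lc3a (0.719) and Blk (0.717), and for Nfatc2, whose values were near background on 22 of 24 arrays, Pcdhb6 (0.826), Cdon (0.819) and Tlr3 (0.806). Among the members themselves the highest correlation was between Nfatc3 and Ppp3cb (0.947), and the lowest was between Nfat5 and Ppp3cb (-0.80).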

How the data were processed

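The authors deposited, per array and probe (25697 on each of 24 arrays), a raw GenomeStudio intensity and the detection p-value that ranks it among negative controls. The submitters' processing notes name GenomeStudio 1.6.0. The Z-scores of the methods are not part of these deposited intensities. The neqc function (limma 3.58.1, R 4.3.3) estimated the background from those p-values, added an offset of 16 and put all arrays on one log2 distribution, although their brightness differed between states. The filter of 0.02 on the detection p left 14246 probes. Symbols were updated through RefSeq's gene table. A model of 8 group means was fitted to all arrays (lmFit, eBayes, 16 residual degrees of freedom) with Benjamini-Hochberg adjustment over the kept probes. The steps were tested on simulated data. The 3 arrays per group limit the precision, and an exact permutation test of 3 against 3 cannot give a p below 0.1.

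All 9 members are named, each by its brightest detected probe, with its other probes where they part in call or sign, as well as Pbrm1 and, for each member, the 3 genes of highest Pearson correlation. The members, lists and named genes were chosen with earlier results of these data known. Fold changes "at least" compare the brighter group with the lowest detected signal of each array of the other.

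The legend of a figure in the study gives 3 pairs of mice, and replicate letters were checked as pairs by correlating the deviations of same-letter WT and BAF180-deficient arrays, which gave 0.301, 0.136 and 0.516 for A, B and C over the 4 states. Alternatives were other background, normalization, filter, fit, probe and calling choices, the letter as a block, and each array left out. The array table carries no slide, so no slide block was run. The values of 1 gene of the pathway lists are not reported here.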

Additional observations from a re-analysis of the deposited data

Results flagged for a closer look

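The response to stimulation differed between Th2 and Naïve cells, by a limma interaction test, for 5 probes in both genotypes. The brightest Nfat5 probe differed by 1.81 in WT and 1.54 in BAF180-deficient cells, and the second Nfat5 probe by 1.68 and 1.47. The Nfatc1 probe ILMN_1224430 differed by 1.78 and 1.98, the brightest Ppp3ca probe by 1.099 and 1.01, and Ppp3r1 by 0.80 and 0.72. Under array median scaling the difference for ILMN_1224430 was 1.17 in WT (adjusted p = 0.180) and 0.78 in BAF180-deficient cells (0.279), and so was not called. The stimuli of the 2 cell types differ in agent and length, so cell type and stimulus cannot be told apart.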

How the results depend on the processing

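Genotype counts stayed at 0 of 9 in the 4 states and in the 3 interactions under every alternative run, the replicate block included. Averaged over the 4 states the count ranged from 0 to 1 with 1 array left out, the 1 being without stimulated Th2 WT replicate C. With the replicate letter as a block, the counts for Naïve stimulation, Th2 stimulation and resting Th2 against resting Naïve cells were 5, 5 and 4 in WT and 4, 4 and 4 in BAF180-deficient cells, and it moved no count by over 1.5 times. With 1 array left out the same counts ranged over 3 to 5, 4 to 5 and 3 to 4 in WT and 4 to 5, 4 to 5 and 3 to 4 in BAF180-deficient cells, and those of the interaction of response and cell type over 2 to 3 in both.

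Array median scaling lowered the counts to 0 (Naïve stimulation, WT), 1 (Naïve stimulation, BAF180-deficient), 2 (Th2 stimulation, WT), 1 (resting Th2 against resting Naïve, WT) and 0 (response, WT). In stimulated BAF180-deficient Naïve cells that 1 gene was none of the 4 called with quantile normalization. Under array median scaling those 4 had limma adjusted p of 0.0538 (Ppp3ca), 0.418 (Nfatc1), 0.585 (Ppp3cb) and 0.702 (Nfatc3). The 4 criteria of the methods gave 1 and 1 for Naïve stimulation, 0 and 0 for resting Th2 against resting Naïve cells and 1 and 1 for the response.

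Array median scaling reversed the sign for Ppp3cb (0.244 in WT and 0.284 in BAF180-deficient cells), Ppp3r1 (0.693, WT) and Nfatc1 (0.387, BAF180-deficient) in Naïve stimulation. Against resting Naïve cells, resting Th2 values became 0.165 and 0.296 for Nfatc1, 0.500 and 0.693 for Nfatc3, 0.0252 and 0.476 for Ppp3r1 and 0.0958 and 0.375 for ILMN_1224430, and -0.0177 for the Nfatc1 probe difference. The response became -0.0635 and -0.986 for Ppp3r1 and -0.567 for Ppp3ca in BAF180-deficient cells. ILMN_1224430 in Naïve stimulation, at -0.16 and -0.20, became 0.0564 and 0.0193 with Z-scores, 0.551 and 0.510 with array medians, 0.212 without resting Naïve WT replicate A and 0.143 without resting Naïve BAF180-deficient replicate B. With 1 array left out it ranged from -0.511 to 0.212 in WT and from -0.391 to 0.143 in BAF180-deficient cells and was called in none of these fits. The cause was not tested. In Th2 stimulation Nfat5, Nfatc3 and ILMN_1224430 kept their sign and call under all 15 alternatives in both genotypes.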
